A study of Mus musculus with 14 samples.

Results

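The Hox genes are the homeobox genes of the Hoxa, Hoxb, Hoxc and Hoxd clusters. They were taken as every gene whose symbol is Hox, a cluster letter from a to d and a paralog number. The rule found 40 entries with 39 symbols among the 36401 genes in the files: 11 Hoxa, 10 Hoxb, 9 Hoxc and 9 Hoxd genes. Hoxa3 was listed in 2 entries, of which the second held a count of 0 in all 14 libraries and was set aside. Of the 39 genes, 15 passed the filter on low counts and were tested. Another 18 had counts but were too low to test, and 6 were at 0 in all libraries.

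RNA was sequenced from small intestinal crypt cells of C57Bl6 mice, labelled as male and aged 6 to 12 weeks. Ileum was taken 5 to 8 cm from the cecum and jejunum 5 to 8 cm from the pylorus. From each region came crypt cells without a surface sort named in the labels (crypt, 3 libraries), cells selected by LGR5, the R-spondin receptor of crypt base columnar stem cells (LGR5, 2 libraries), and cells sorted as CD44+, CD24lo and CD166+ (CD166, 2 libraries). As labelled, the groups differ by region and selection: no treatment or allele is named, and how LGR5 was recognised and whether mice were pooled is not given in the sources used here. Since the labels name no separate animals, p-values measure only the spread between these libraries.

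Hox genes encode transcription factors that bind DNA through a homeodomain and give cells their position along the body axis. In each cluster the genes lie in the order of their paralog numbers, low numbers being used anteriorly and early, and high numbers posteriorly and late. In the gut they are best known from the embryo, where they help set regional identity in the mesoderm and the endoderm.

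Total expected counts ran from 6295828 to 20380369 per library. Epithelial markers were high throughout: the summed level of 7 genes was 4926 to 11828 CPM (each count scaled to the library total, adjusted by TMM). The summed level of 10 lymphocyte markers was 6.5 to 52.5 CPM in the sorted libraries, against 150 to 10571 CPM in crypt libraries. The library labelled ileum crypt 3 went against its label. Its Fabp6, an ileal bile acid binding protein, was at 25.8 CPM, against 2688 and 1987 CPM in ileum crypt 1 and 2. Its Gata4, a factor of the proximal intestine, was at 233 CPM, against 28.0 and 45.4 CPM in those libraries and 229 CPM in jejunum crypt 1. It was the library most like jejunum crypt 1 among all pairs: the mean squared difference of counts was 4.68 times the counting variance, and 10.4 times in the next closest pair. Jejunum crypt 1 also stood apart from its group: its Fabp6 was at 25.1 CPM, against 1.26 and 1.14 CPM in jejunum crypt 2 and 3, and its Pdx1 at 0.367 CPM, against 23.5 and 13.2 CPM. Counts of Hox genes called with edgeR that rest on the library labelled ileum crypt 3 are given with and without it, as are some estimates. Results for other genes include it unless stated. Xist, a transcript of female cells, was at 2.78 to 3.11 CPM in 4 crypt libraries and at 201 to 1675 CPM in the other 10, although all are labelled male. The Hoxb levels given next were high in ileum crypt 1, with Xist at 1675 CPM, and in ileum crypt 2, with Xist at 3.01 CPM.

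The Hoxb cluster carried nearly all Hox RNA of the ileum. Hoxb3 to Hoxb9 together reached 158 and 248 CPM in the ileal LGR5 libraries and 163 and 196 CPM in the ileal CD166 libraries. In ileum crypt 1 and 2 the sum was 67.0 and 66.7 CPM. In the 7 jejunal libraries it was 2.54 to 6.59 CPM, and in the library labelled ileum crypt 3 it was 2.17 CPM. These 7 genes held 91.0% to 95.4% of all Hox counts, as CPM, in ileal sorted cells and 25.8% to 34.3% in jejunal sorted cells. The summed level of the 11 Hoxa genes spread far less, from 1.66 to 11.6 CPM over the 14 libraries. In the jejunum it made up 36.8% to 60.5% of Hox CPM.

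**Figure D1:**
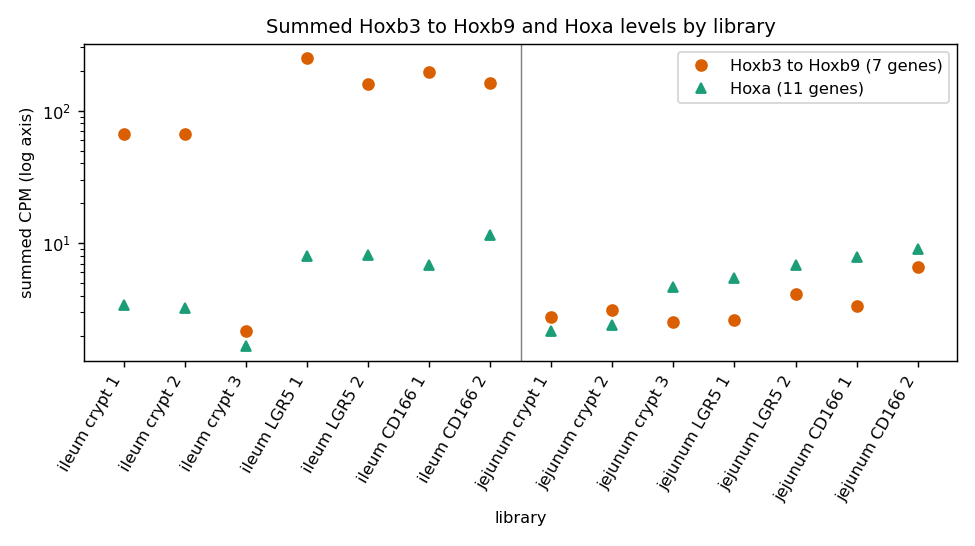
Summed CPM of Hoxb3 to Hoxb9 (circles) and of the 11 Hoxa genes (triangles) in each of the 14 libraries, on a log axis, with the 7 ileal libraries left of the line. The Hoxb sum is 66.7 to 248 CPM in 6 ileal libraries and 2.17 to 6.59 CPM in the 7 jejunal libraries and the one labelled ileum crypt 3.

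Over the 3 populations, 8 of the 15 tested Hox genes were higher in the ileum and 1 was lower, by edgeR's quasi-likelihood test with Benjamini-Hochberg adjustment over 14750 genes at an adjusted p under 0.05. Of all genes tested, 2.99% were higher and 2.02% lower, 5.01% in all. The genes that rose were Hoxa3, Hoxb3, Hoxb5, Hoxb6, Hoxb7, Hoxb8, Hoxb9 and Hoxd4, and the gene that fell was Hoxa9. The median log2 difference of all genes was -0.01. Without the library labelled ileum crypt 3, Hoxb4 and Hoxd3 were also higher, which gave 10 higher and 1 lower, while 8.61% of all genes were called. Leaving out a sorted library leaves 1 library in its group, and more genes then passed the filter on low counts. In each such fit fewer Hox genes, and fewer of all genes, were called in this comparison than with every library. Calls that Hox genes lost there, here and below, were thus not particular to Hox genes. The estimates of Hoxb5 to Hoxb9 stayed positive in all of these fits. With ileum crypt 3 and jejunum crypt 1 both left out, 12 Hox genes were called. Of these 10 were higher and Hoxa9 and Hoxb2 lower, while 9.53% of all genes were called.

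**Figure D2:**
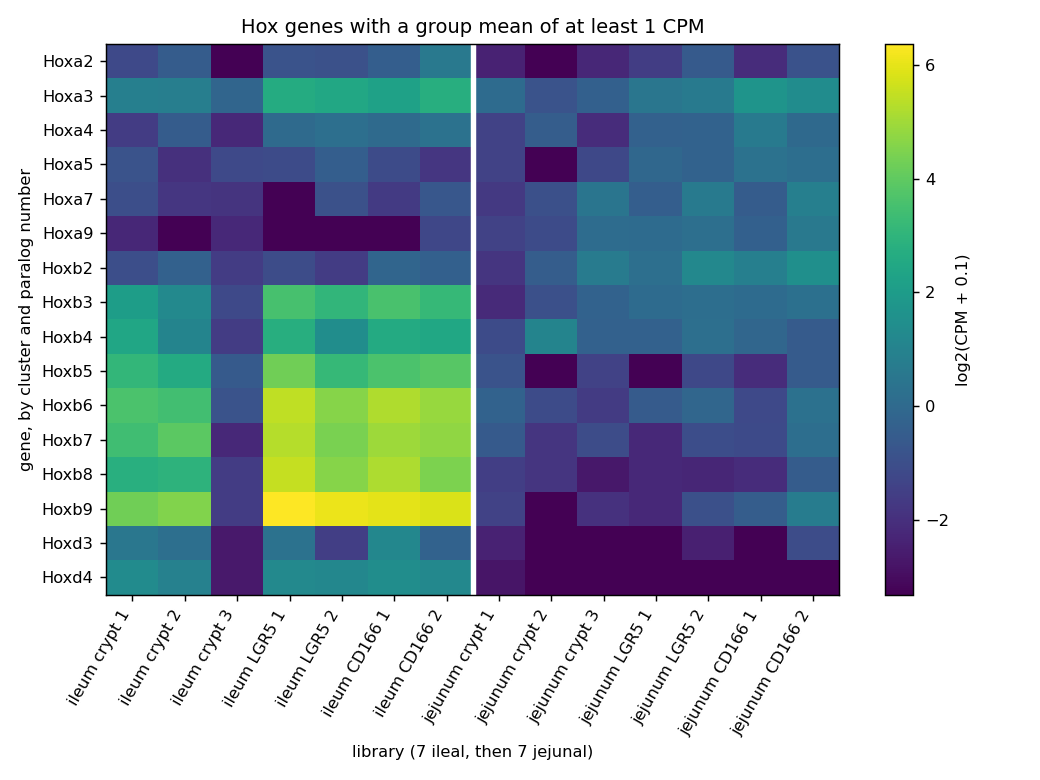
Level of the 16 Hox genes with a group mean of at least 1 CPM in each library, as log2(CPM + 0.1), ordered by cluster and paralog number. Hoxb5 to Hoxb9 are bright in 6 of the 7 ileal columns, with the library labelled ileum crypt 3 dark like the jejunal columns.

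Related genes in the Hoxa and Hoxb clusters went in different directions, so it matters how far reads can tell them apart. Over the whole transcripts in GENCODE M21, Hoxb9 shares 0.233% of its 50-base words with other genes and Hoxa9 0.646%. Hoxa7, Hoxb2, Hoxb3, Hoxb5, Hoxb7 and Hoxb8 share none there. Words were compared along the transcript strand only, so overlapping antisense genes are not covered. The counts in the files were not all whole, with 5.74 for Hoxb7 and 2.26 for Hoxb8 in jejunal LGR5 cells. These 2 counts add up to a whole number. So do 14.27 and 4.73 in jejunal crypt and 18.84 and 10.16 in jejunal CD166 cells. Reads thus appear to have been divided between Hoxb7 and Hoxb8, although their transcripts share no words here. For these 2 genes the words do not settle how far reads were told apart. Reads of other genes may have been split as well.

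Promoters are shown for 4 genes, chosen after their matches and values were seen. Hoxb8 and Hoxd4, higher in the ileum, are the genes with a match to the motif named next among the 22 Hox genes with a window. The other 17 Hox genes had no window and were not searched. Hoxb4, with a positive estimate that was not called, and Hoxa9, lower in the ileum, have none. Hoxd3, also with a positive estimate that was not called, had a window with no match and is not shown. The windows hold 250 bases before and 50 bases from the start of the gene (RefSeq, GRCm38.p6), read along the gene. They are chr11:96281655-96281954 on the plus strand, chr2:74721728-74722027 on the plus strand, chr11:96318017-96318316 on the plus strand and chr6:52227321-52227620 on the minus strand. Capitals mark matches on either strand to TTTATNG, the motif of the caudal-type factors Cdx1 and Cdx2.
Hoxb8: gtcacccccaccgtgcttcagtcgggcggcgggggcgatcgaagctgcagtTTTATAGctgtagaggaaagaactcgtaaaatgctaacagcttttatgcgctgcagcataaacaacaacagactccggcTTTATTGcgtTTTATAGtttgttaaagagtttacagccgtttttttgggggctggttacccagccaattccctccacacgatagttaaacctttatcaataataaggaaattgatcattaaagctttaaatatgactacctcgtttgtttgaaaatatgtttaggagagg
Hoxd4: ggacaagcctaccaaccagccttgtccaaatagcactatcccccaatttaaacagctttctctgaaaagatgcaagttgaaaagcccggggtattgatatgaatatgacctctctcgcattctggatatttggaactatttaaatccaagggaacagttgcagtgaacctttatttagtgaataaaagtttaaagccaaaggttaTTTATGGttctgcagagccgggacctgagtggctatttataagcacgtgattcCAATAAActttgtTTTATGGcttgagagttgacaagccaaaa
Hoxb4: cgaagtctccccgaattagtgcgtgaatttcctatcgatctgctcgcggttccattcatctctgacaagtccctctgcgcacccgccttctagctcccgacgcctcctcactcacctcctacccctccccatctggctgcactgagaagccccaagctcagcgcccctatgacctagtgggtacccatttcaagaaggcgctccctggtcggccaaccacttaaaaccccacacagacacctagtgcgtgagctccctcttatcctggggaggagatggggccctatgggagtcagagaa
Hoxa9: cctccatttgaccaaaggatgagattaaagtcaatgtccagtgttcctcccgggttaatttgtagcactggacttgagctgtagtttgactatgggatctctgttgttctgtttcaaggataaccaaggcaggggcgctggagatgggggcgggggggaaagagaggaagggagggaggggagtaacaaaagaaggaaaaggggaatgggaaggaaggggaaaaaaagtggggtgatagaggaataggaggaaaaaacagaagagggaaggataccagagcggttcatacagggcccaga
Hoxb8 and Hoxd4 hold 3 matches each, none of which overlap. The table held 24 windows for 22 of the 39 Hox genes, of which 2 windows had a match, against 10.9% of all 32851 promoters. The Hox and Pbx motif TGATTNAT was in 2 of the 24 windows and in 3.22% of all, and the nuclear receptor half-site AGGTCA in 7 of the 24 and in 16.3% of all. A match is a run of letters and no sign of binding.

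Hoxb9, the highest paralog number measured above 1 CPM in this cluster, was the most abundant Hox gene. It was at 19.4, 23.1 and 0.229 CPM in ileal crypt, 82.8 and 67.8 CPM in ileal LGR5 and 62.3 and 55.8 CPM in ileal CD166. Jejunal levels were 0.275, 0 and 0.164 CPM in crypt, 0.119 and 0.410 CPM in LGR5 and 0.620 and 1.56 CPM in CD166. All ileal libraries but the one labelled ileum crypt 3 lay above all jejunal ones. In raw numbers this was 3407 counts over the ileal libraries and 42 over the jejunal ones. The log2 difference was 6.68 ± 0.78 (SE; edgeR adjusted p = 0.00262).

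Hoxb8, its neighbour, was at 6.87, 7.64 and 0.229 CPM in ileal crypt, 46.1 and 24.6 CPM in ileal LGR5 and 35.8 and 21.9 CPM in ileal CD166. No jejunal library exceeded 0.610 CPM. The log2 difference was 6.51 ± 0.73 (SE; edgeR adjusted p = 0.00262). In LGR5 cells the expected counts were 729.7 in the ileum and 2.26 in the jejunum, and the fit gave 324-fold. Rounded to 730 and 2 counts the ratio is 373-fold, with a 95% counting interval of 103 to 3083-fold (Clopper-Pearson). The interval covers counting error only. It takes the counts as whole and independent, which expected counts need not be. The jejunal Hoxb8 count appears to hold a part of reads divided with Hoxb7, so both ratios depend on that division.

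Hoxb7 was at 10.5, 14.97 and 0.114 CPM in ileal crypt, 38.7 and 21.5 CPM in ileal LGR5 and 30.6 and 27.1 CPM in ileal CD166, with at most 1.03 CPM in a jejunal library. Hoxb6 was at 12.3, 10.8 and 0.457 CPM in ileal crypt, 43.1 and 24.5 CPM in ileal LGR5 and 36.8 and 29.1 CPM in ileal CD166, with at most 1.12 CPM in the jejunum. Hoxb5 was at 8.55, 5.94 and 0.572 CPM in ileal crypt, 19.3 and 8.81 CPM in ileal LGR5 and 12.1 and 14.3 CPM in ileal CD166, with at most 0.595 CPM in the jejunum. For these 3 genes, too, only the library labelled ileum crypt 3 reached down into the jejunal range. Their log2 differences were 5.48 ± 0.75, 5.06 ± 0.63 and 5.14 ± 0.71 (SE), with edgeR adjusted p of 0.00502, 0.00379 and 0.00502. Without that library the differences of Hoxb5 to Hoxb9 were 5.32 ± 0.54, 5.25 ± 0.34, 5.67 ± 0.35, 6.70 ± 0.41 and 6.87 ± 0.30. Hoxb5, Hoxb6, Hoxb7, Hoxb8 and Hoxb9 kept their call in each of the 23 alternative fits, the 14 that leave out 1 library included.

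The anterior Hoxb genes differed less. Hoxb3 was at 4.09, 2.27 and 0.343 CPM in ileal crypt, 11.6 and 8.29 CPM in ileal LGR5 and 12.0 and 9.004 CPM in ileal CD166, while jejunal libraries were at 0.124 to 1.08 CPM. Its log2 difference was 2.98 ± 0.50 (SE; edgeR adjusted p = 0.00992). The adjusted p was 0.0557, 0.0561 and 0.0584 without jejunum LGR5 1, jejunum LGR5 2 or jejunum CD166 2. Hoxb4 was at 5.24, 1.96 and 0.229 CPM in ileal crypt, 6.57 and 2.58 CPM in ileal LGR5 and 6.00 and 5.42 CPM in ileal CD166. Jejunum crypt 2 reached 1.98 CPM for Hoxb4, above ileum crypt 2, and the test was missed narrowly (log2 2.23 ± 0.58; edgeR adjusted p = 0.0511). It passed once the library labelled ileum crypt 3 was left out, at 2.42 ± 0.44 (edgeR adjusted p = 0.00671).

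Hoxb2 lay on the other side. It was at 0.403, 0.706 and 0.234 CPM in ileal crypt and 0.184, 0.626 and 1.54 CPM in jejunal crypt, which overlap. In sorted cells the jejunum was above the ileum, with 1.07, 2.20, 1.72 and 2.76 CPM against 0.378, 0.230, 0.803 and 0.688 CPM. The log2 difference over all populations was -1.58 ± 0.48 (SE) and missed the threshold (edgeR adjusted p = 0.0932). It passed without jejunum crypt 1 (-1.73, adjusted p = 0.0358). Hoxb2 and Hoxb3 are next to each other in the cluster, and their estimates had opposite signs. Hoxb1 and Hoxb13, the ends of the cluster, had 1 and 19 counts over all libraries.

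**Figure D3:**
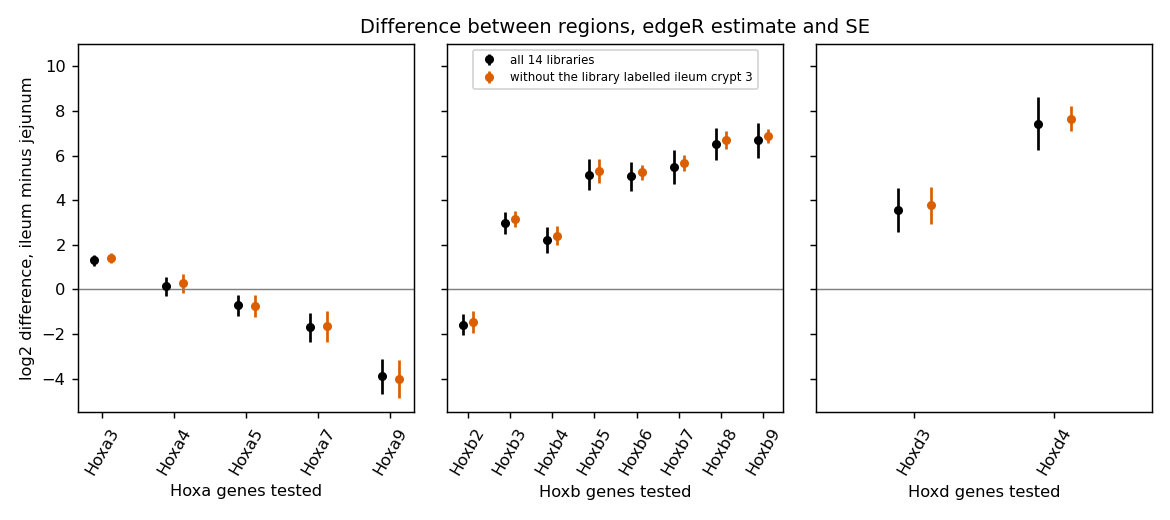
Log2 difference between ileum and jejunum over the 3 populations, with its standard error, for the 15 tested genes in order of paralog number, with all 14 libraries (black) and without the library labelled ileum crypt 3 (orange). In the Hoxa panel the estimates run from 1.31 for Hoxa3 to -3.89 for Hoxa9, while in the Hoxb panel they run from -1.58 for Hoxb2 to 6.68 for Hoxb9.

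Per kilobase of exon, which allows genes to be set side by side, the ileal LGR5 mean level was higher for Hoxb6 to Hoxb9 than for the genes before them. It was 0.0872 CPM per kilobase for Hoxb2, 2.34 for Hoxb3, 1.78 for Hoxb4, 5.04 for Hoxb5, 17.2 for Hoxb6, 19.5 for Hoxb7, 13.4 for Hoxb8 and 29.2 for Hoxb9, and 0 for Hoxb1 and Hoxb13. Within both libraries the order from high to low was Hoxb9, Hoxb7, Hoxb6, Hoxb8, Hoxb5, Hoxb3 and Hoxb4. Ileal LGR5 1 was above ileal LGR5 2 for each of these genes. Across the libraries the values of Hoxb7, Hoxb6 and Hoxb8 overlapped, as did those of Hoxb3 and Hoxb4. The ileal CD166 means had the same order at the top, with 23.0 for Hoxb9, 18.7 for Hoxb7 and 16.8 for Hoxb6. In jejunal LGR5 cells the highest value of the cluster was 0.470 CPM per kilobase, for Hoxb2.

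**Figure D4:**
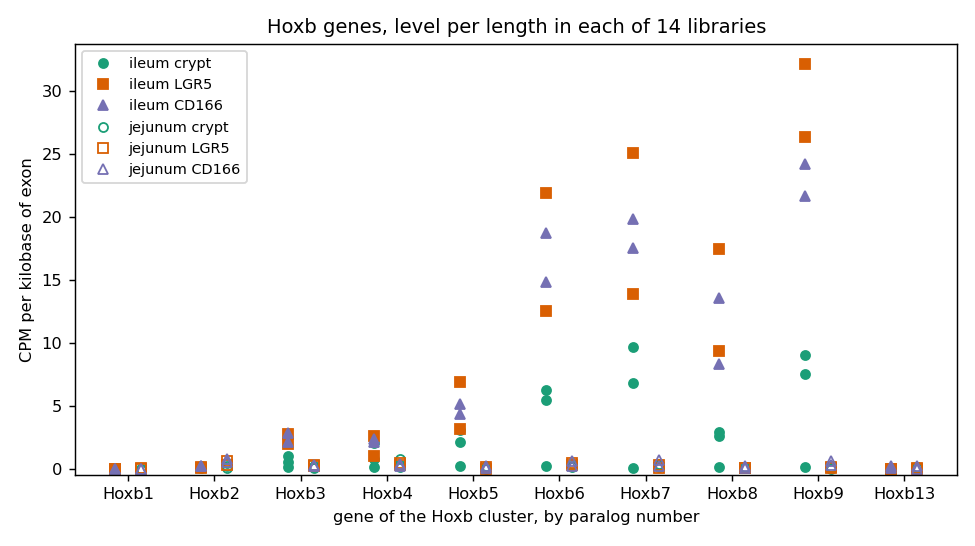
CPM per kilobase of exon of the 10 Hoxb genes in each of the 14 libraries, ileum as filled and jejunum as open symbols. Filled symbols are highest at Hoxb9, where the ileal LGR5 mean is 29.2. Filled circles are the ileal crypt libraries, and at Hoxb5 to Hoxb9 the lowest is the one labelled ileum crypt 3.

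In the Hoxa cluster Hoxa3 rose and Hoxa9 fell in the ileum, and the estimates of the genes between them lay in between. The log2 differences between ileum and jejunum were 1.31 ± 0.25 for Hoxa3, 0.13 ± 0.43 for Hoxa4, -0.72 ± 0.46 for Hoxa5, -1.70 ± 0.66 for Hoxa7 and -3.89 ± 0.78 for Hoxa9 (SE). Of these, Hoxa3 (edgeR adjusted p = 0.0157) and Hoxa9 (adjusted p = 0.0206) passed the test. The order over these 5 genes is a description and was not tested. Hoxa3 lost its call in 5 of the 14 fits that leave out 1 library: without either jejunal LGR5 or CD166 library or without ileum CD166 2 (adjusted p at most 0.0735). Without the library labelled ileum crypt 3 the differences were 1.40 ± 0.23 for Hoxa3 and -4.00 ± 0.86 for Hoxa9.

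Hoxa9 fell in the ileum, the 1 Hox gene called lower with all 14 libraries. It was at 0.114, 0 and 0.114 CPM in ileal crypt, 0 and 0 CPM in ileal LGR5 and 0 and 0.319 CPM in ileal CD166. In the jejunum it was at 0.275, 0.360 and 0.981 CPM in crypt, 0.954 and 1.06 CPM in LGR5 and 0.689 and 1.41 CPM in CD166. Within each population the jejunal libraries lay above the ileal ones, and the total was 73 counts against 7. In LGR5 cells, where the ileum was at 0, the jejunal mean was 6.79 times a floor of 3 counts over the ileal group. Counting error of the jejunal counts is not included. Hoxa9 lost its call in 6 of the 14 fits that leave out 1 library, where the adjusted p rose to at most 0.0807 (those without either LGR5 library of the ileum or the jejunum, or either jejunal CD166 library).

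Hoxa7 was at 0.175 to 0.403 CPM in ileal crypt and 0.209 to 1.26 CPM in jejunal crypt, and at 0 to 0.525 CPM against 0.612 to 1.71 CPM in sorted cells. It did not pass the test (edgeR adjusted p = 0.192). Hoxa10, too low to be tested, had 21 counts in the ileum and 50 in the jejunum, and 19 of the ileal ones fell in the CD166 libraries. Ileum CD166 2 was at 1.15 CPM and every other ileal library at 0.114 CPM or less, so that the ileal count rests on that library. Hoxa5 was at 0.191 to 0.646 CPM in ileal sorted cells and 0.737 to 1.17 CPM in jejunal sorted cells, while the crypt libraries overlapped. Hoxa4 ran from 0.114 to 1.52 CPM with no separation in the whole set, and its estimate changed sign without ileum crypt 2 or without jejunum crypt 3. Hoxa2 reached 1.40 CPM in ileum CD166 2 and was otherwise at 0 to 0.646 CPM. Hoxa6, Hoxa11 and Hoxa13 had 7.81, 0.5 and 3 counts over all libraries.

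Hoxa3 was the Hox gene called between cell populations as well as between regions. It was at 1.73, 1.66 and 0.801 CPM in ileal crypt, 6.06 and 5.51 CPM in ileal LGR5 and 4.54 and 6.67 CPM in ileal CD166. In the jejunum it was at 0.955, 0.453 and 0.692 CPM in crypt, 1.31 and 1.45 CPM in LGR5 and 3.15 and 2.50 CPM in CD166. In both regions every sorted library lay above every crypt library. In the ileum Hoxa3 rose by log2 2.05 ± 0.41 in LGR5 against crypt cells (SE; edgeR adjusted p = 0.0150) and by 2.01 ± 0.41 in CD166 against crypt cells (adjusted p = 0.0158). In the jejunum it rose by 1.94 ± 0.42 in CD166 (adjusted p = 0.0116), and its estimate in LGR5 was 0.91 ± 0.44, which missed the threshold (adjusted p = 0.148). The jejunal CD166 call was lost without jejunum CD166 1. Without jejunum crypt 2 or jejunum crypt 3, Hoxa4 or Hoxb2 was called beside Hoxa3, which gave 2. With only the groups compared 0 Hox genes were called there, and limma-voom called 3: Hoxa3, Hoxa4 and Hoxa5. Of all genes these called 893 of 14076 and 2557 of 14750. The comparisons of sorted with crypt cells share the crypt libraries of their region. The call in the ileum was lost without either ileal LGR5 library for the first and without either ileal CD166 library for the second, and was kept without each of the other libraries in turn. Some of the Hoxa3 sequence is shared: 7.42% of its 50-base words occur in other genes.

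**Figure D5:**
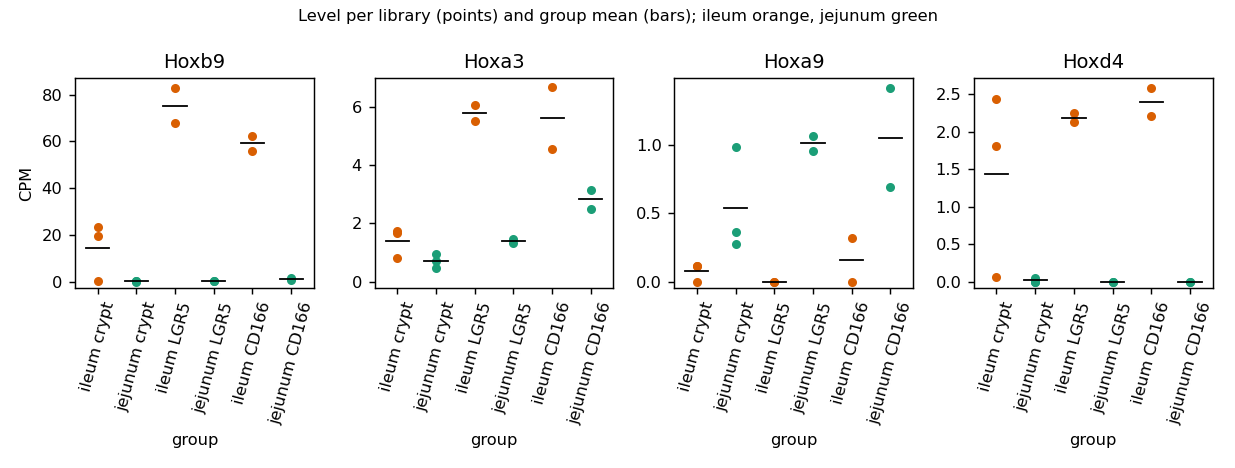
CPM of Hoxb9, Hoxa3, Hoxa9 and Hoxd4 in each library (points) with the group mean (bars), ileum in orange and jejunum in green, each panel with its own axis from 0. Hoxb9 and Hoxd4 are near 0 in all jejunal groups, Hoxa9 is higher in the jejunum, and Hoxa3 is higher in sorted than in crypt libraries.

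Hoxa3 was 1 of 15 tested Hox genes called for LGR5 against crypt in the ileum, where 5.61% of all genes were called, 1.5% higher and 4.12% lower. It was also 1 of 15 for CD166 against crypt in the ileum, where 8.37% of all genes were called, 3.23% higher and 5.14% lower. For CD166 against crypt in the jejunum 1 of 15 was called, where 18.0% of all genes were called, 7.89% higher and 10.1% lower. For LGR5 against crypt in the jejunum 0 Hox genes were called, where 23.1% of all genes were called, 9.27% higher and 13.8% lower. In that last comparison 1 Hox gene had an unadjusted p under 0.05, and DESeq2 and limma-voom also called 0. In ileal LGR5 against crypt cells Hoxb3 to Hoxb9 had positive estimates that were not called, such as 2.41 ± 0.91 for Hoxb9 (adjusted p = 0.137) and 2.85 ± 0.85 for Hoxb8 (adjusted p = 0.0718), and that of Hoxb2 was -0.65 ± 0.92. Without the library labelled ileum crypt 3, Hoxb8 and Hoxb9 joined Hoxa3 in the ileal LGR5 comparison, where 3.43% of all genes were called. For CD166 against crypt, Hoxa3 alone was then called in the ileum (background 3.51%) and Hoxa3 and Hoxb9 in the jejunum (background 18.4%). Between CD166 and LGR5 cells of the ileum 0 of the 15 Hox genes were called, 0 had an unadjusted p under 0.05, DESeq2 and limma-voom called 0, and 0.0136% of all genes were called (0.0271% without the library labelled ileum crypt 3, with 0 Hox genes).

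Markers of other cells differed between the groups. The summed level of 12 stromal markers was 54.7 to 142 CPM in ileal and 28.4 to 98.2 CPM in jejunal crypt, 17.6 and 17.6 CPM in ileal and 10.99 to 14.05 CPM in jejunal LGR5, and 29.2 to 57.4 CPM in ileal and 44.9 to 56.6 CPM in jejunal CD166 cells. In the ileal LGR5 libraries 1 and 3 of the 12 were at 0 and in the jejunal LGR5 libraries 4 and 1. Col1a1 was at 0.79 and 0 CPM in ileal LGR5 cells, while Vim was at 4.96 and 11.02 CPM. Of the 10 stromal markers tested between regions 1 was higher in the ileum, Pdgfrb (log2 1.67, edgeR adjusted p = 0.0186), and 9 did not pass. Pdgfrb was at 6.99 and 4.41 CPM in ileal and 0.716 and 2.38 CPM in jejunal LGR5 cells. The summed level of 6 myeloid markers was 75.3 to 81.0 CPM in ileal and 36.8 to 63.1 CPM in jejunal LGR5 cells. In CD166 cells it was 98.3 to 109 CPM and 80.1 to 91.4 CPM, and in crypt 46.4 to 125 CPM and 41.9 to 165 CPM. Of these 6 genes 1 was higher in the ileum, Itgam. Of 10 lymphocyte, 3 endothelial and 6 enteroendocrine markers tested, 0 were called between regions. The summed level of 6 enteroendocrine markers was 3262 to 3266 CPM in jejunal and 377 to 1044 CPM in ileal CD166 cells, 165 to 338 CPM in LGR5 cells and 138 to 608 CPM in crypt. That of 6 enteric nervous markers was 16.9 to 17.5 CPM in jejunal and 11.2 to 15.1 CPM in ileal CD166 cells. In LGR5 cells it was 4.53 to 4.67 CPM in the jejunum and 7.36 to 10.01 CPM in the ileum. In crypt it was 4.19 to 5.75 CPM in the jejunum and 5.88 to 12.96 CPM in the ileum. Of the 2 enteric nervous markers tested between regions 1 was higher in the ileum, Ret, while 2.99% of all genes were higher. The part of such cells in the Hox values was not tested. In these bulk samples, fewer cells of a type and less RNA per cell cannot be told apart.

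The Hoxd cluster was read through Hoxd3 and Hoxd4. Hoxd4 was at 2.43, 1.81 and 0.057 CPM in ileal crypt, 2.25 and 2.12 CPM in ileal LGR5 and 2.58 and 2.22 CPM in ileal CD166. Jejunal crypt libraries were at 0.046, 0 and 0 CPM and the gene was at 0 in all 4 jejunal sorted libraries. It was the only Hox gene whose 7 ileal libraries all lay above the 7 jejunal ones, as 0.251% of all genes did, while for 0.163% they lay below. That separation rests on less than 1 count in jejunum crypt 1 and in the library labelled ileum crypt 3. Against jejunal groups at 0, the ileal Hoxd4 mean was 15.02 times a floor of 3 counts over the group in LGR5 cells, and 22.4 times in CD166 cells. Counting error of the ileal counts is not included. The fit gave an edgeR adjusted p of 0.0184, and its log2 difference of 7.44 ± 1.19 depends on how counts of 0 are handled and is no measure of size. Hoxd4 lost its call in 7 of the 14 fits that leave out 1 library, each of them 1 of the 8 sorted libraries (all but ileum LGR5 1), with an adjusted p of at most 0.0701.

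Hoxd3 was at 1.34, 1.05 and 0.057 CPM in ileal crypt, 1.15 and 0.244 CPM in ileal LGR5 and 2.13 and 0.717 CPM in ileal CD166, with at most 0.372 CPM in the jejunum. Its log2 difference of 3.57 ± 0.99 (SE) did not pass (edgeR adjusted p = 0.0661), and did without the library labelled ileum crypt 3 (3.77 ± 0.84, edgeR adjusted p = 0.0199). Of its 50-base words 60.2% also occur in other genes, Hoxd4 among them, so that the levels of Hoxd3 and Hoxd4 are uncertain. Hoxd8 had 7 counts in the ileum and 0 in the jejunum. The other 6 Hoxd genes had 0 to 2 counts each over all libraries.

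No Hoxc gene was tested. Hoxc10, Hoxc11, Hoxc12 and Hoxc13 were at 0 in all libraries, where 3 counts is the level that a count of 0 allows. The other 5 had 1 to 9 counts each. Hoxc4, Hoxc6 and Hoxc8 had 8, 7 and 7 counts in the ileum and 1, 2 and 0 in the jejunum, of which 5, 5 and 6 fell in ileal crypt libraries. The summed Hoxc level was at most 1.25 CPM, in ileum crypt 1, and at most 0.369 CPM in a sorted library.

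Without the library labelled ileum crypt 3, 7 Hox genes had no overlap between the 6 ileal and the 7 jejunal libraries, and all 7 were higher in the ileum: Hoxb3, Hoxb5, Hoxb6, Hoxb7, Hoxb8, Hoxb9 and Hoxd4. Of all tested genes 1.47% were higher in this way and 0.915% lower. These sets of libraries, chosen after that library was seen to go against its label, carry no test of their own.

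Region was also compared within each population. In LGR5 cells Hoxb8 (log2 8.34 ± 1.43, edgeR adjusted p = 0.0438) and Hoxb9 (7.99 ± 1.49, adjusted p = 0.0444) were higher in the ileum, 2 of 15, where 0.569% of all genes were higher, 0.129% lower and 0.698% called in all. Hoxb8 kept this call in 5 of the 14 fits that leave out 1 library and Hoxb9 in 4. The adjusted p reached 0.424 for both without jejunum LGR5 2, and 0.327 and 0.356 without jejunum LGR5 1. In crypt cells edgeR called 0 of 15, as it called 0 genes in all, while 10 Hox genes had an unadjusted p under 0.05. There DESeq2 called 5, Hoxb5 to Hoxb9, and 323 of all 14750 genes. The limma-voom test called 0 Hox genes and 0 genes in all. In CD166 cells edgeR called 0 of 15, where 0.0203% of all genes were called, 0.0136% higher and 0.00678% lower, with 11 at an unadjusted p under 0.05. There DESeq2 called 6 Hox genes and limma-voom 0, beside 186 and 48 of all 14750 genes. Without the library labelled ileum crypt 3 the counts were 7 in crypt, 8 in LGR5 and 7 in CD166, where 4.17%, 2.42% and 0.760% of all genes were called. That library is in no LGR5 or CD166 group, and acts there through the spread that all groups share in the fit. A test of whether the regional difference varied among the 3 populations called 0 of 15 with edgeR, DESeq2 and limma-voom, with 0 at an unadjusted p under 0.05, and 0.0136% of all genes were called.

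The clusters hold 23 other genes of the files, of which 15 had counts, 6 were tested and 3 were called, all higher in the ileum, as 2.99% of all genes were. Gm53, a long noncoding RNA gene of the Hoxb cluster, was at 11.7, 9.04 and 0 CPM in ileal crypt, 25.3 and 15.7 CPM in ileal LGR5 and 24.3 and 14.3 CPM in ileal CD166. In the jejunum it was at 0 to 0.5001 CPM, and its log2 difference was 6.24 ± 0.99 (SE; edgeR adjusted p = 0.00805). 0610040B09Rik, named Hoxb5os in GENCODE and antisense to Hoxb5 and Hoxb6, was at 0.664 to 1.43 CPM in ileal sorted cells and at 0 in jejunal sorted cells (log2 5.00 ± 1.10, adjusted p = 0.0329). 5730596B20Rik, which overlaps Hoxa3, was at 0.323 to 1.31 CPM in ileal and 0 to 0.119 CPM in jejunal sorted cells (2.77 ± 0.68, adjusted p = 0.0394). In the fits that leave out 1 library, Gm53 kept its call in 13 of 14 (adjusted p = 0.0527 without jejunum LGR5 1), 0610040B09Rik in 4 and 5730596B20Rik in 3. The labels do not say that reads keep their strand, so reads of overlapping sense and antisense genes cannot be told apart.

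Mir196a-1, the host locus of a microRNA that lies in the Hoxb cluster and is known to cut Hoxb8 mRNA, was at 0.319 to 0.798 CPM in the ileal libraries but 0 in all 7 jejunal ones and in the library labelled ileum crypt 3. With 35 counts in all it was not tested, and the mature microRNA was not measured. The mature sequence (RefSeq, GRCm38.p6, chr11:96265187-96265208, plus strand) is shown with its seed, bases 2 to 8, in capitals, beside a stretch of the Hoxb8 transcript after the coding part, where capitals mark the bases opposite the seed.
miR-196a-5p: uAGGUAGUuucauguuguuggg
Hoxb8 site: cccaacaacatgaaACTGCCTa
Of the 22 bases, 21 are complementary. The 1 that is not lies opposite the seed, where the site has a G facing a U.

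Genes that act with or upstream of Hox genes were mostly not called between the regions. Cdx1 and Cdx2, caudal-type activators of posterior Hox genes, were at 55.9 to 406 CPM and 133 to 417 CPM. Their differences were log2 0.63 ± 0.30 and 0.21 ± 0.21 (SE; edgeR adjusted p = 0.313 and 0.725). Of this family 3 of 6 genes were tested and 1 was called, beside 2.02% of all genes that were lower: Pdx1, the ParaHox factor of duodenum and pancreas. It was at 0 to 2.93 CPM in the ileum and 0.367 to 23.5 CPM in the jejunum, and fell by 5.17 on the log2 scale (adjusted p = 0.00780). DESeq2 also called it and limma-voom did not. Of 9 Pbx, Meis and Pknox cofactors of Hox proteins, 7 were tested and 1 was called, Meis2, which fell by 3.37 (adjusted p = 0.0284), where 2.02% of all genes were lower and 5.01% were called. It was at 0 to 0.191 CPM in ileal and 0.596 to 1.84 CPM in jejunal sorted cells, and the call was lost in 9 of the 14 fits that leave out 1 library (adjusted p at most 0.112). The most abundant cofactor, Pbx2, was at 41.4 to 65.3 CPM in all libraries and was not called.

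Of 22 Polycomb genes, whose products keep Hox genes silent, 0 were called and 2 had an unadjusted p under 0.05. Of 13 tested Trithorax genes, which keep them active, 0 were called and 0 had an unadjusted p under 0.05. DESeq2 and limma-voom also called 0 in both lists. The median log2 difference was 0.01 and -0.03, beside -0.01 for all genes. Of 18 genes of retinoic acid signalling, which induces anterior Hox genes in the embryo, 10 were tested and 1 was called: the receptor Rarb, which fell by 1.82 (adjusted p = 0.0224) and was called in 5 of the 14 fits that leave out 1 library. Of all genes 5.01% were called. DESeq2 called 4 of the 10, and 9.56% of all genes. Of the regulators named, Pdx1 was called in each of the 14 fits that leave out 1 library.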

How the data were processed

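RNA of 14 libraries was read on an Illumina HiSeq as single 50-base reads, per the labels' protocols. The authors deposited expected counts per gene, which need not be whole. Genome build mm9 and DESeq are named in the submitters' processing notes, the latter with no version. Aligner and counter: not given in the sources used here. Multi-mapped reads may thus have been split between related genes.

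Expected counts were rounded to whole numbers, genes were kept with filterByExpr (minimum count 10, minimum total 15; 14750 of 36401), scaled by TMM and fitted with edgeR 4.0.16 in R 4.3.3 as 6 group means over all 14 libraries, which share 1 estimate of the spread. Calls use a Benjamini-Hochberg adjusted p under 0.05 over all tested genes. The heat map adds 0.1 to the CPM. The steps were tested on simulated data. Alternatives were DESeq2 1.42.0, limma-voom (limma 3.58.1), other scalings and filters, no rounding, a replicate block, only the groups compared, and each library left out. Exon lengths and transcripts come from GENCODE M21 and promoters and the microRNA from RefSeq, both on another build than the files, so genes were matched by ID or symbol. Every Hox gene is accounted for. Those with a group mean of at least 1 CPM are described by library, and other genes are named from lists where called or high. The Hox genes and the lists were chosen with earlier results of these data known. A few genes and sequences are not reported here.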

Additional observations from a re-analysis of the deposited data

How the results depend on the processing

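Of the 9 Hox genes called over all populations, Hoxb5 to Hoxb9 kept their call in all alternatives, and leaving out 1 library gave 5 to 11 called. Within crypt cells (0 called) leaving out 1 library gave 0 to 7, DESeq2 5, and leaving out the library labelled ileum crypt 3 together with jejunum crypt 1 gave 7. Within LGR5 cells (2 called) leaving out 1 library gave 0 to 8, no filter on low counts and limma-voom 0, DESeq2 7, only the groups compared 9 and leaving out both libraries 8. Within CD166 cells (0 called) the corresponding values were 0 to 7, 6 with DESeq2, 8 with only the groups compared and 7 without both libraries. For LGR5 against crypt in the ileum (1 called) leaving out 1 library gave 0 to 3, DESeq2 3, limma-voom 4, only the groups compared 0 and leaving out both libraries 3. For CD166 against crypt in the ileum (1 called) the values were 0 to 2, 2 with DESeq2, 4 with limma-voom, 0 with only the groups compared and 0 without both libraries. The number of all genes called moved as well. Within crypt cells it was 0 of 14750 with edgeR, 323 with DESeq2 and 863 of 14714 without both libraries. Within LGR5 cells it was 103, 773 and 399, and 1574 of 12882 with only the groups compared, where 10 Hox genes were tested. Within CD166 cells it was 3, 186 and 142, and 571 of 13784, with 13 Hox genes tested. For LGR5 and CD166 against crypt in the ileum, with only the groups compared, it was 204 of 13258 and 185 of 13456. The causes were not tested. The estimate of Hoxa4, never called, ran from -0.13 to 0.31 with 1 library left out and changed sign to -0.13 without ileum crypt 2 and to -0.04 without jejunum crypt 3. Counts of a few per library limit what can be said of the Hoxc genes and of most Hoxa and Hoxd genes.

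Deviations of same-numbered libraries from their group means were correlated across regions, at -0.44, -0.52 and 0.42 in crypt, -0.19 in LGR5 and -0.25 in CD166. With 2 libraries in a group both must give the same value, so LGR5 and CD166 hold 1 value each. In crypt, ileum crypt 3 and jejunum crypt 1 stood apart from their groups. The values thus cannot settle whether replicate numbers pair the libraries. With a replicate block 9 Hox genes were called over all populations, 5 within LGR5, 3 within CD166 and 2 for LGR5 against crypt in the ileum. Of all 14750 genes 923, 254, 31 and 694 were called in these comparisons. A crossed pairing of the LGR5 and CD166 libraries, added after seeing the data, called 6 Hox genes within LGR5 and 3 within CD166. It called 2 for each of LGR5 and CD166 against crypt in the ileum. Of all genes it called 315, 36, 603 and 608.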
